A study of Mus musculus with 27 samples.

Results

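The 10 genes described here belong to the LIF-STAT3 pathway and the Pim kinase family, and they were followed through the states of mouse pluripotency: the receptor subunits Lifr and Il6st, the kinase Jak1, the transcription factor Stat3, the feedback inhibitors Socs2 and Socs3, the pathway target Gbx2, and the kinases Pim1, Pim2 and Pim3. They were taken by symbol from a table of 23608 entries, of which 23604 carry a name that is listed once, and all 10 were found. The genes were chosen by their known place in the pathway and on measured values of these same libraries, chiefly the high Pim2 and low Socs3, Stat3 and Pim1 of EpiLCs and fPSCs beside mESCs, so that their levels are given as a description with no test. All 10 passed the filter used for the tests on other genes (1 FPKM or more in at least 2 of 13 libraries), Lifr through the mESCs, 1 EpiLC library and 1 fPSC line.

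The series holds bulk RNA-seq of 19 libraries, single-cell RNA-seq of 4 fPSC clones, and maps of H3K4me3, H3K27me3 and CG methylation of fPSCs at passage 10 (P10). All samples are labelled as wild type, and the states differ in medium. mESCs (naive embryonic stem cells, 2 libraries) were grown without feeders in N2B27 with 2i/LIF, the only medium of the series with LIF. EpiLCs (epiblast-like cells, 2 libraries) grew in N2B27 with Activin A, bFgf2 and KSR. EpiSCs (primed epiblast stem cells, 2 libraries) grew on mitomycin-treated mouse embryonic fibroblasts with KSR, Activin A, bFGF2 and XAV939, an inhibitor of Wnt signalling. Epiblastoids (1 library each for days 2, 3 and 4) had the EpiLC medium in Matrigel, and fPSCs (formative pluripotent stem cells) were kept in Matrigel in N2B27 with Activin A, bFgf2 and XAV939. The fPSC libraries are 1 of P1, 7 of long-term cells (P10, P20, P30, which are of the CMT line, CMT P11, 46C P24, BVSC P14 and ROSAmTmG P12) and 2 of fPSCs that came from E5.5 and E6.5 epiblasts, each at P10. CMT, 46C, BVSC and ROSAmTmG are mESC lines, each line a single culture here, so the spread among the 7 libraries mixes lines, passages and deposits. By the study's account 46C carries a Sox1-GFP reporter, BVSC carries Blimp1 and Stella reporters, and ROSAmTmG cells are marked by tdTomato.

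Leukaemia inhibitory factor (LIF) binds a receptor made of LIFR and gp130, the product of Il6st. The receptor activates JAK kinases, above all JAK1, which phosphorylate STAT3, and STAT3 then enters the nucleus and turns on genes that hold mouse embryonic stem cells in the naive state, along with Socs3, whose product shuts the receptor down. Pim kinases are short-lived serine/threonine kinases that are active as soon as they are made, so their transcript level is a main point of control, and cytokine signalling through STAT proteins is a known inducer of them.

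STAT proteins bind a palindrome that reads TTCNNNGAA, and its tighter form TTCCNGGAA. Searched on both strands within 1000 bp of the annotated start of each protein-coding gene in the mm9 (NCBIM37) genome, TTCCNGGAA lay near 6.23% of 22102 genes and near 2 of the 10 members, both of them SOCS genes. The looser TTCNNNGAA, which takes in every TTCCNGGAA, lay near 45.3% of the genes and near 5 members (Jak1, Socs2, Socs3, Gbx2 and Pim2). The matches of Socs3 and of Pim2, which was far lower in mESCs than elsewhere where Socs3 was far higher, are shown with 10 bases on each side, 5′ to 3′ on the gene's strand, with the motif in capitals; the first holds TTCCNGGAA.
Socs3, chr11:117830543-117830571, minus strand: ggccgggcagTTCCAGGAAtcggggggcg
Socs3, chr11:117830816-117830844, minus strand: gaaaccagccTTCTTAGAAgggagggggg
Pim2, chrX:7454877-7454905, plus strand: aattttacccTTCCCTGAAgagtggacca
Pim2, chrX:7455149-7455177, plus strand: cgcaaaggaaTTCCCAGAAgcgtgcatgt
The Socs3 matches are centred 804 and 531 bp after the annotated start, and the Pim2 matches lie before it, at -497 and -225 bp, as counted along the gene. The start that RefSeq gives for Socs3, chr11:117830680, lies inside the annotated gene, and the match at 531 bp lies before that start. Whether this match stands before or after the start thus depends on the annotation. A match is a stretch of letters and not a measured binding site, and no STAT3 binding was measured in these files.

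Of the receptor genes, Lifr (chr15:7079559-7147489, plus strand) encodes the LIF-binding subunit and was lower than in mESCs in every EpiLC, EpiSC and fPSC library. Its level was 6.95 and 2.18 FPKM (fragments scaled to transcript length and library size) in the mESC libraries, 1.79 and 0.646 FPKM in EpiLCs, 0.374 and 0.181 FPKM in EpiSCs, and from 0.0548 to 1.23 FPKM with a median of 0.146 FPKM in the 7 fPSC libraries. The 2 mESC libraries stood as far from each other as the group means of mESCs and EpiLCs did. The log2(FPKM + 1) difference of EpiLCs from mESCs was -1.23 ± 1.08 (SD of the difference between libraries, n = 2 and 2). The 46C line alone held the fPSC maximum of 1.23 FPKM, and the next highest fPSC library was at 0.259 FPKM.

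The high Lifr of 46C and of day-4 Epiblastoids (3.42 FPKM, against 0.160 on day 3) went along with endoderm markers and with T, Foxa2, Eomes and Mixl1. The 5 endoderm markers Sox17, Gata4, Gata6, Sox7 and Dab2 summed to 84.4 FPKM in 46C and to between 2.12 and 17.8 FPKM in the other 6 fPSC libraries. Their sum was 119 FPKM on day 4 of Epiblastoids against 0.971 on day 3. Of the 5, 4 were at 1 FPKM or more in 46C (Sox7 was not) and 3 on day 4 (Sox7 and Dab2 were not). Sox7 was below 1 FPKM in all 19 libraries, and the sum does not tell which kind of endoderm is present. T, Foxa2, Eomes and Mixl1, listed beforehand as primed markers, summed to 191 FPKM in 46C and to 35.8 to 106 FPKM in the other 6 fPSC libraries. Their sum was 490 FPKM on day 4 of Epiblastoids against 52.1 on day 3. In fPSCs from E5.5 and E6.5 epiblasts it was 194 and 172 FPKM, at a Lifr of 0.370 and 0.675 FPKM. In EpiSCs, the primed group, the sum was only 46.7 and 58.4 FPKM, so it does not follow the primed state. The part of endoderm or other differentiating cells in the Lifr level was not tested. In bulk libraries more cells of a type and more RNA per cell cannot be told apart, here or in any result that follows.

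Il6st (chr13:113265216-113297068, plus strand) encodes gp130, the signalling subunit shared by the receptors of the IL-6 cytokine family, and its transcript was high at both ends of the series and low between them. mESCs held 13.6 and 8.90 FPKM and EpiSCs 10.01 and 10.3 FPKM, whereas EpiLCs held 2.02 and 1.45 FPKM and the 7 fPSC libraries 1.77 to 3.32 FPKM (median 2.24). mESC and EpiSC libraries overlapped, and both groups lay above every EpiLC and fPSC library. On the log2(FPKM + 1) scale the difference from mESCs was -2.15 ± 0.45 for EpiLCs, -1.84 ± 0.46 for fPSCs and -0.11 ± 0.40 for EpiSCs, and that of fPSCs from EpiSCs was -1.72 ± 0.22.

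Jak1 (chr4:100824972-100937887, minus strand), the receptor-bound tyrosine kinase, had its highest level in EpiSCs. It was measured at 15.2 and 17.2 FPKM in EpiSCs, 11.8 and 5.68 in mESCs, 6.77 and 4.91 in EpiLCs, and 2.69 to 5.89 FPKM (median 4.17) in fPSCs. EpiSCs stood above all other libraries, while mESCs overlapped both EpiLCs and fPSCs. The fPSCs of the first deposit alone (2.69 to 3.82 FPKM) lay below every mESC and EpiLC library. The log2(FPKM + 1) difference between EpiSCs and mESCs was 0.89 ± 0.67, and without the first mESC library the small difference between EpiLCs and mESCs turned from -0.45 to 0.02.

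Stat3 (chr11:100746412-100800854, minus strand), the transcription factor that the receptor activates, was 6.41 times as high in mESCs as in fPSCs by the ratio of mean FPKM. mESC libraries held 23.2 and 17 FPKM, EpiSCs 7.40 and 7.24, EpiLCs 2.98 and 2.59, and the 7 fPSC libraries 2.45 to 3.86 FPKM with a median of 3.08. The groups formed 3 levels without overlap, with mESCs on top, EpiSCs next, and EpiLCs and fPSCs together at the bottom. The log2(FPKM + 1) difference from mESCs was -2.47 ± 0.32 for EpiLCs, -2.35 ± 0.35 for fPSCs and -1.33 ± 0.30 for EpiSCs, and fPSCs differed from EpiLCs by 0.12 ± 0.21, less than the spread between libraries.

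Socs3 (chr11:117827393-117831361, minus strand), the inhibitor that STAT3 induces and that blocks gp130 and JAK1, was far lower outside mESCs. It stood at 79.3 and 66.1 FPKM in mESCs, 1.18 and 0.680 in EpiLCs, 13 and 16.9 in EpiSCs, and 0.988 to 2.18 FPKM (median 1.53) in fPSCs. Its order was that of Stat3, with no overlap between mESCs, EpiSCs and the low pair of EpiLCs and fPSCs. Mean FPKM in mESCs was 78.2 times that in EpiLCs, 45.0 times that in fPSCs and 4.86 times that in EpiSCs, and the log2(FPKM + 1) differences were -5.26 ± 0.32, -4.83 ± 0.29 and -2.21 ± 0.31.

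Socs2 (chr10:94847996-94879814, minus strand), an inhibitor known best for its action on growth hormone signalling through STAT5, went its own way. It was at 17.3 and 26.2 FPKM in mESCs, 23.4 and 27.7 in EpiLCs and 11.8 to 39.5 FPKM (median 32.9) in fPSCs, but at 8.23 and 8.29 FPKM in EpiSCs. Only EpiSCs stood apart, below every library of the other 3 groups, while mESCs, EpiLCs and fPSCs overlapped. The BVSC line gave the fPSC minimum of 11.8 FPKM, and the other 6 libraries were at 25.5 FPKM or more. fPSCs exceeded EpiSCs by 1.66 ± 0.56 on the log2(FPKM + 1) scale.

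EpiSCs were the one group grown on fibroblasts, and markers of fibroblasts were high in them. The 12 fibroblast markers summed to between 213 and 283 FPKM in EpiSCs, 1.61 to 3.65 in mESCs, 10.2 to 11.8 in EpiLCs and 3.56 to 9.01 FPKM in fPSCs, and 8 of the 12 reached 1 FPKM in each EpiSC library. The part of feeder RNA in the Il6st, Jak1, Stat3, Socs3 and Socs2 levels of EpiSCs was not tested.

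Gbx2 (chr1:91824537-91829865, minus strand) encodes a homeobox factor that acts below LIF and STAT3 in naive cells, yet it did not follow Stat3 and Socs3 across the states. Its level was 8.59 and 6.69 FPKM in mESCs, 16.4 and 13.8 in EpiLCs, 13.4 and 12.9 in EpiSCs, and 0.392 to 1.42 FPKM (median 0.982) in fPSCs. EpiLCs and EpiSCs lay above mESCs, and every long-term fPSC library lay below every library of those 3 groups. The log2(FPKM + 1) difference of fPSCs was -2.20 ± 0.37 from mESCs, -3.10 ± 0.33 from EpiLCs and -2.92 ± 0.30 from EpiSCs. The single libraries between them lay at 1.65 FPKM on day 2, 1.99 on day 3 and 0.169 on day 4 of Epiblastoids, and at 4.17 FPKM in fPSCs at P1.

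**Figure D1:**
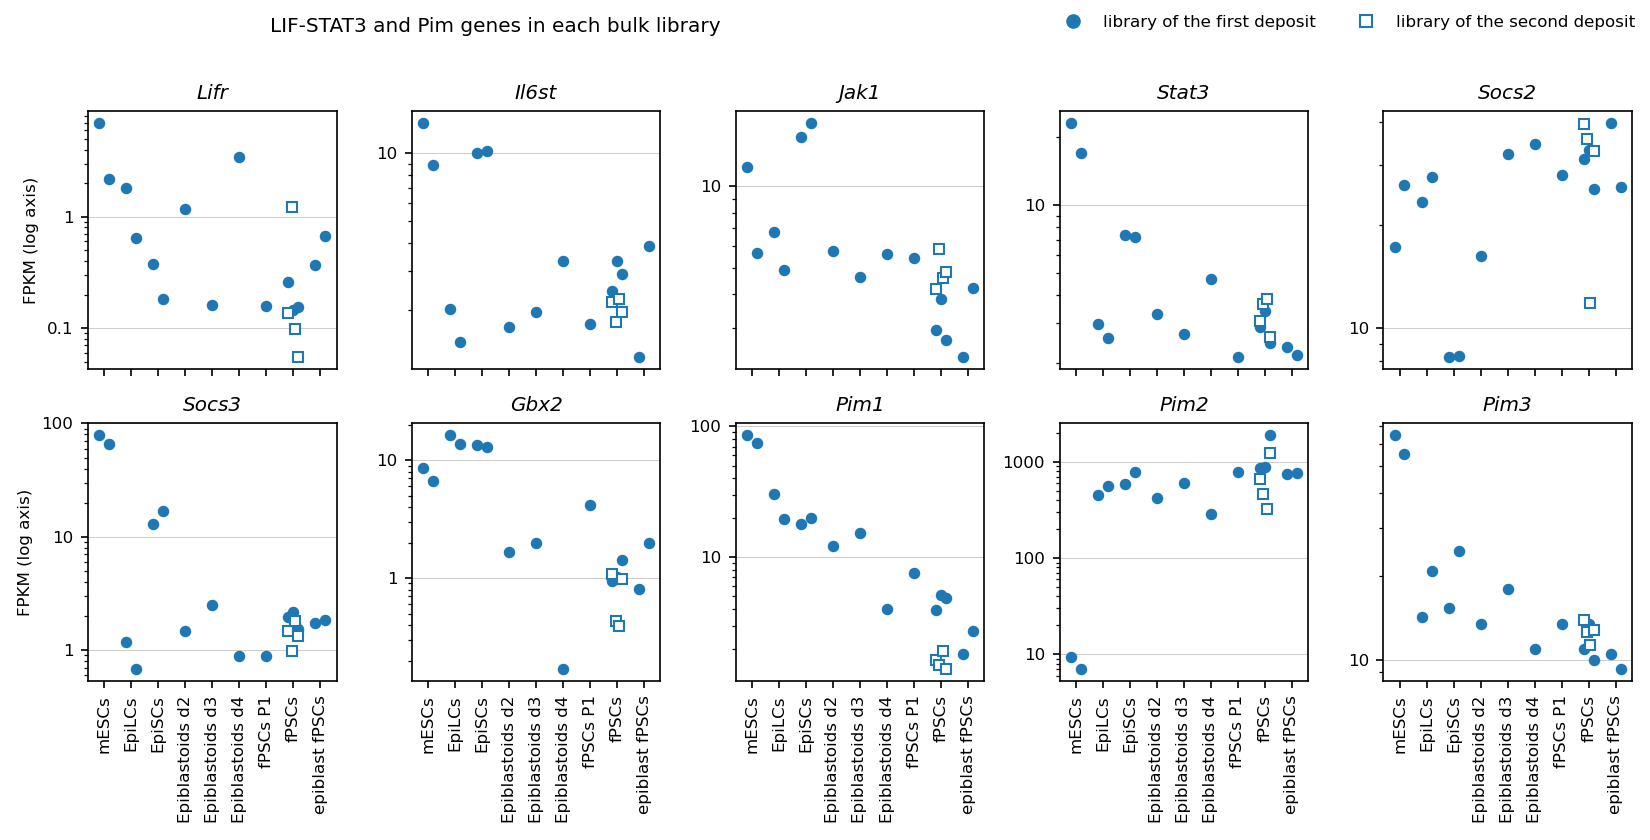
FPKM on a log axis for the 10 genes in each of the 19 bulk libraries, by group; filled circles are libraries of the first deposit and open squares the 4 of the second. Pim2 is at 7.02 to 9.29 FPKM in mESCs and at 288 FPKM or more in every other library, while Socs3, Pim1 and Pim3 have their highest values in mESCs.

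The 3 Pim genes parted. Pim1 and Pim3 were highest in mESCs, and Pim2 was lowest there. PIM kinases share many substrates and promote survival and growth in blood and stem cells.

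Pim2 (chrX:7455388-7460558, plus strand) was measured at 9.29 and 7.02 FPKM in mESCs, 449 and 567 in EpiLCs, 597 and 794 in EpiSCs, and 327 to 1913 FPKM (median 864) in fPSCs. mESCs lay far below all other libraries, both EpiSC libraries lay above both EpiLC libraries, and the 7 fPSC libraries overlapped each of these groups. The fPSC libraries of the first deposit alone (864 to 1913 FPKM) lay above all EpiLC and EpiSC libraries, and those of the second (327 to 1244 FPKM) overlapped both. The ratio of mean FPKM to mESCs was 62.3 for EpiLCs, 85.3 for EpiSCs and 111 for fPSCs, and the log2(FPKM + 1) differences were 5.80 ± 0.35, 6.25 ± 0.39 and 6.44 ± 0.89. Its mean place among all genes of a library was at percentile 74.1 in mESCs, 99.6 in EpiLCs and 99.7 in fPSCs.

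Within fPSCs, Pim2 was the Pim gene with the widest range in FPKM. P10 and P20 held 864 and 882 FPKM and P30 1913 FPKM, and among the lines CMT P11 held 662, 46C 469, BVSC 327 and ROSAmTmG 1244 FPKM. The values of both deposits overlapped. fPSCs from E5.5 and E6.5 epiblasts, at 756 and 775 FPKM, and P1, at 791 FPKM, lay inside the long-term range.

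Pim1 (chr17:29627757-29632390, plus strand), the family member that STAT3 is best known to induce, went down by steps. It was at 85.9 and 74.6 FPKM in mESCs, 30.5 and 19.7 in EpiLCs, 18.0 and 19.8 in EpiSCs, and 1.39 to 5.12 FPKM (median 1.92) in fPSCs. EpiLCs and EpiSCs overlapped, and fPSCs lay below every library of the other 3 groups. The difference of fPSCs on the log2(FPKM + 1) scale was -4.48 ± 0.62 from mESCs, -2.82 ± 0.74 from EpiLCs and -2.46 ± 0.61 from EpiSCs.

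The fPSC values of Pim1 split by deposit, and so did those of Il6st and Jak1. Il6st was at 2.44 to 3.32 FPKM in the first deposit and 1.77 to 2.24 FPKM in the second. Jak1 was at 2.69 to 3.82 FPKM in the first and 4.17 to 5.89 FPKM in the second. For Pim1, P10, P20 and P30 of the first deposit held 3.92, 5.12 and 4.90 FPKM. The 4 lines of the second deposit held 1.39 to 1.92 FPKM of Pim1, with no overlap. CMT cells were sequenced in both, and CMT P11 of the second deposit was at 1.63 FPKM. The epiblast-derived fPSCs, which are of the first deposit, were at 1.83 FPKM (E5.5), within the range of the second deposit, and 2.73 FPKM (E6.5), between both sets. Against EpiLCs the log2 difference was -2.18 within the first deposit and -3.29 with the fPSCs of the second deposit, and both sets of fPSC libraries lay below the EpiLC libraries. The labels name a total RNA protocol for the first deposit and the NEBNext Ultra kit for the second. The long-term fPSCs of the deposits also differed in RNAs that carry no poly(A) tail. The sum of 3 of these was 230 to 311 FPKM in P10, P20 and P30 and 3.16 to 7.83 FPKM in the second deposit. The first deposit was not uniform. The sum was high in mESCs (779 and 3362), Epiblastoids of days 3 and 4 (606 and 759) and epiblast-derived fPSCs (435 and 416). It was low in EpiLCs (10.1 and 20.2), EpiSCs (5.003 and 5.44), P1 (10.7) and day-2 Epiblastoids (14.047). Comparisons of mESCs, or of P10, P20 and P30, with EpiLCs or EpiSCs thus span this difference. Its part in the levels was not tested. CMT P10 and P11, which are of the same line, fell on opposite sides of the split, and P11 was cryopreserved, as the study states. Library preparation and cryopreservation cannot be told apart for this pair, nor preparation and line for the other 3 lines.

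Pim3 (chr15:88692616-88696150, plus strand) varied least of the 10 members among the fPSC libraries relative to its mean, with a coefficient of variation of 11.8%. mESCs held 64.9 and 55.5 FPKM, EpiLCs 14.3 and 20.9, EpiSCs 15.4 and 24.8, and fPSCs 10.02 to 14 FPKM (median 12.6). mESCs stood above all other libraries, and fPSCs just below EpiLCs and EpiSCs. The log2(FPKM + 1) difference from mESCs was -1.74 ± 0.40 in EpiLCs, -1.57 ± 0.48 in EpiSCs and -2.22 ± 0.22 in fPSCs.

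Since FPKM is a level per length of transcript, the 3 genes can be set beside each other. Pim1 made up 53.6% and 54.4% of their summed FPKM in mESCs, Pim3 40.6% and 40.5%, and Pim2 5.80% and 5.12%. In EpiLCs Pim2 made up 90.9% and 93.3%, in EpiSCs 94.7% of both libraries, and in fPSCs 96.1% to 99.2%. The sum itself was 137 to 160 FPKM in mESCs, 494 to 608 in EpiLCs, 630 to 839 in EpiSCs and 341 to 1928 in fPSCs, so that the family total was higher in every library outside mESCs although 2 of its 3 genes were lower.

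**Figure D2:**
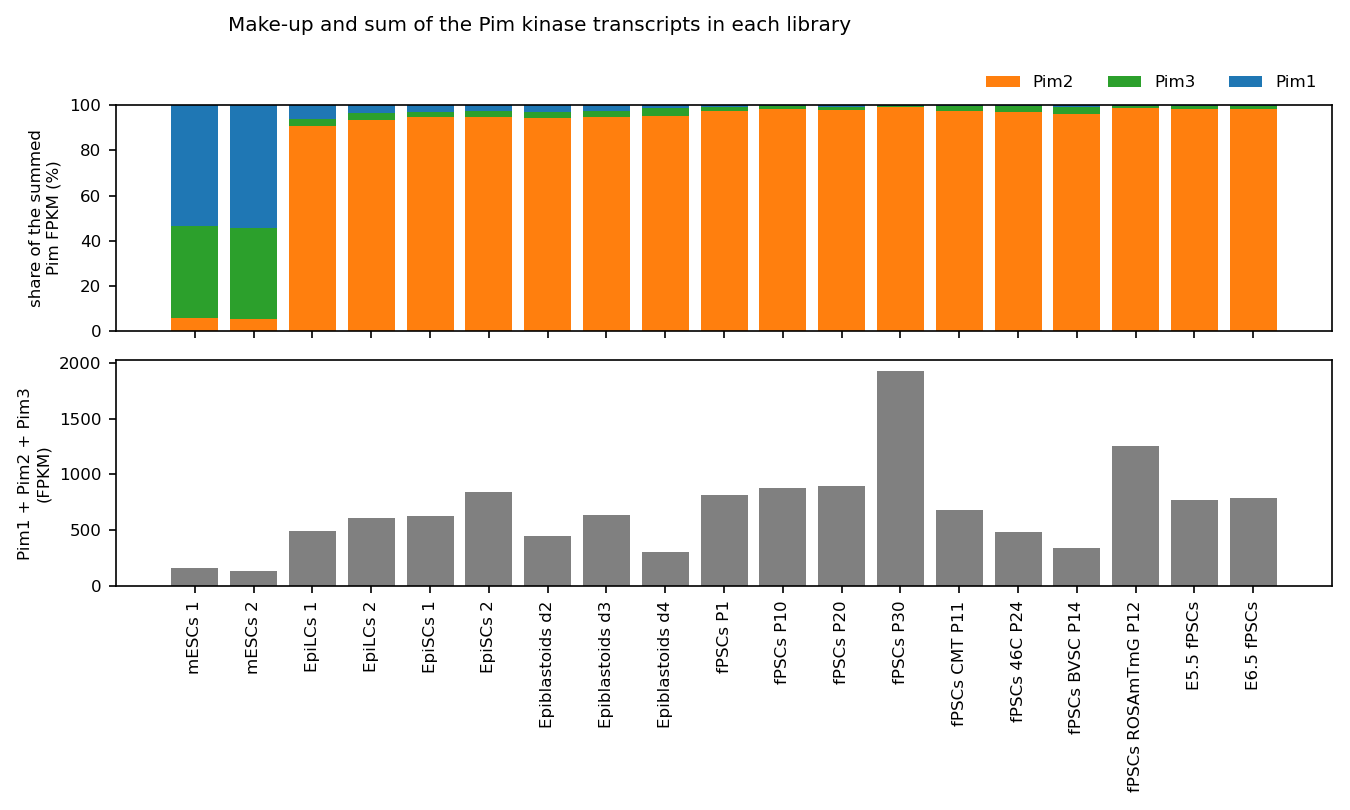
Upper panel, share of Pim1, Pim2 and Pim3 in their summed FPKM (%) in each library; lower panel, that sum in FPKM. Pim2 takes 5.12% to 5.80% of the sum in mESCs and at least 90.9% in every other library, and the sum runs from 137 to 1928 FPKM.

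Single libraries fill in the time course. Pim1 was at 12.1 FPKM on day 2, 15.2 on day 3 and 3.98 on day 4 of Epiblastoids, and at 7.58 FPKM in fPSCs at P1, between EpiLCs and long-term fPSCs. Pim2 was at 418, 606 and 288 FPKM on the 3 days. Socs3 was already at 1.48 FPKM on day 2 and at 0.890 FPKM at P1. With 1 library per point these values have no replicate check. Of the fPSCs from epiblasts, both libraries lay inside the long-term fPSC range for Lifr, Socs3, Pim1 and Pim2, 1 of them did for Jak1, Socs2, Gbx2 and Pim3, and neither did for Il6st (1.24 and 3.85 FPKM) or Stat3 (2.36 and 2.18 FPKM).

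Counted over the 10 genes, EpiLCs did not overlap mESCs in 8 (2 higher, 6 lower), EpiSCs did not in 9 (3 higher, 6 lower), and fPSCs did not in 8 (1 higher, 7 lower). Over all 12513 genes tested the same was true of 68.2%, 80.9% and 50.3%, and nothing is read from the members' counts, since the choice of members used these contrasts. fPSCs did not overlap EpiLCs in 3 (Gbx2, Pim1 and Pim3, all lower) beside 27.1% of all genes, and did not overlap EpiSCs in 8 (Socs2 higher, 7 lower) beside 45.4%. With the fPSCs of the first deposit alone, 8 members did not overlap EpiLCs (3 higher, 5 lower), and with those of the second deposit 3 did not (all lower). Groups of fewer libraries overlap less readily, and the share of all genes was not counted for these 2 sets. Nothing is therefore read from the counts of the single deposits. The median log2(FPKM + 1) difference of the members was -1.45 for EpiLCs, -1.30 for EpiSCs and -2.10 for fPSCs against mESCs, where that of all genes tested was -0.06, -0.09 and -0.04. It was -0.16 for fPSCs against EpiLCs and -1.37 against EpiSCs, with 0.01 and 0.02 for all genes. Nothing is read from the members' medians against mESCs either, since the members were chosen on those contrasts. The comparisons with mESCs share the same 2 mESC libraries and the others share the fPSC libraries, so they are not independent of each other.

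**Figure D3:**
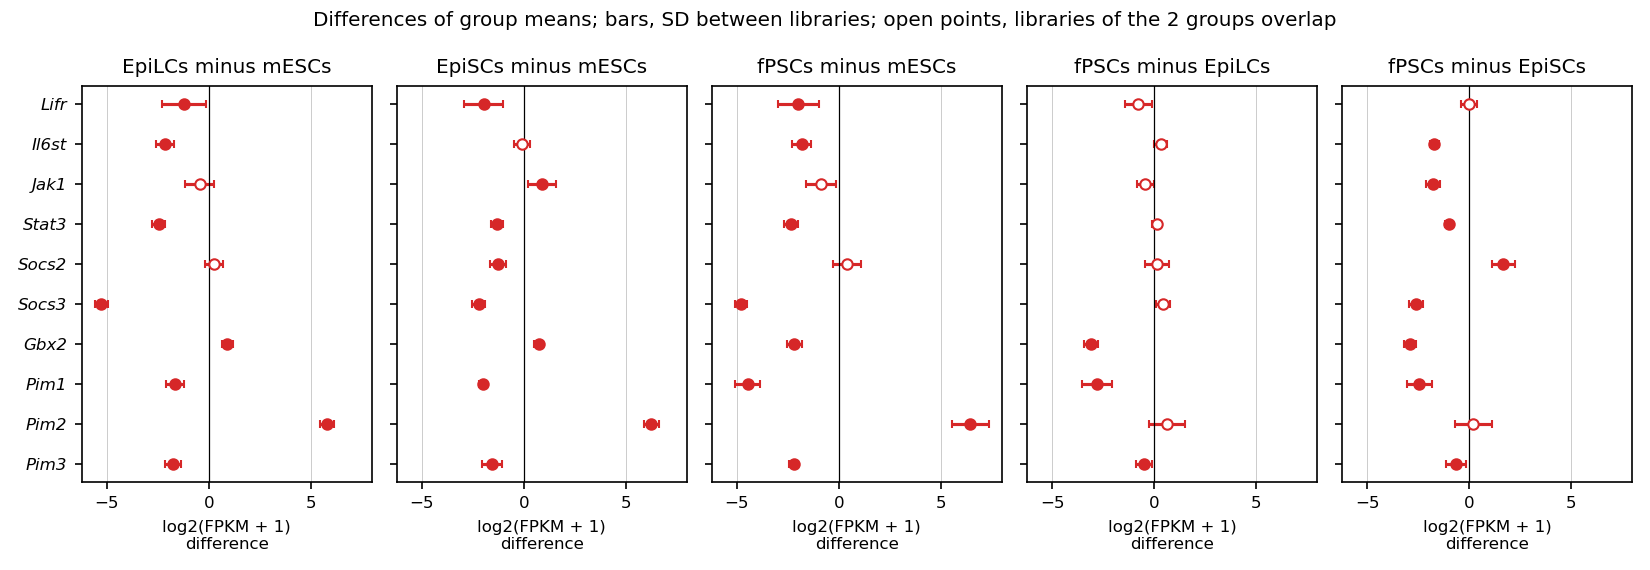
Difference of the group means of log2(FPKM + 1) for the 10 genes in 5 comparisons; bars are the SD of the difference between libraries, and open points mark genes whose libraries overlap between the groups. Pim2 reaches 6.44 for fPSCs minus mESCs and Socs3 -5.26 for EpiLCs minus mESCs, and 7 of the 10 points are open for fPSCs minus EpiLCs.

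For the rest of the pathway, 43 further genes were listed (7 ligands, 5 receptors, 9 kinases or STATs, 14 negative regulators and 8 targets), and 39 were high enough to be tested. This list and that of the Pim substrates below were chosen with earlier results of these data known. Their calls, counts and p-values thus describe these genes and are no independent test of the pathway. In EpiLCs against mESCs, 5 of the 39 rose and 17 fell by limma with an adjusted p under 0.05 and a fold of 1.5, beside 12.2% of all 12513 genes that rose and 17.4% that fell. The median log2(FPKM + 1) difference of the 39 was -0.71. No ligand, kinase or STAT rose, and 6 of the 8 targets fell. With the libraries scaled to the same upper quartile, higher genes made up 49.97% of all calls in this comparison, where they were 41.1% of the calls on FPKM as deposited.

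The targets with the largest falls were transcription factors and a regulator of the naive state. Klf4, a STAT3 target that sustains self-renewal, stood at 76.0 and 85.6 FPKM in mESCs and at 0.273 and 0.514 FPKM in EpiLCs, a log2(FPKM + 1) change of -5.88 ± 0.21 (SE; adjusted p = 6.2e-10 by limma). Tfcp2l1, another STAT3 target of the naive state, stood at 65.4 and 114 FPKM in mESCs and 0.518 and 0.877 FPKM in EpiLCs (-5.69 ± 0.27, adjusted p = 6.1e-09 by limma), and Bcl3, an IκB family co-regulator, at 34.3 and 51.4 FPKM against 0.201 and 0.252 (-5.13 ± 0.20, adjusted p = 1.2e-09 by limma). These targets went the way of Socs3 and Pim1.

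The pathway genes that rose most in EpiLCs included Myc and a receptor gene. Myc, a growth factor-driven transcription factor, was at 0.669 and 0.8293 FPKM in mESCs and 44.5 and 61.1 FPKM in EpiLCs, a change of 4.93 ± 0.41 on the log2(FPKM + 1) scale (adjusted p = 1.6e-06 by limma). Cntfr, the receptor subunit for ciliary neurotrophic factor, was at 0.125 and 0.188 FPKM in mESCs and 5.93 and 13.1 FPKM in EpiLCs (3.09 ± 0.56, adjusted p = 0.0010 by limma). Myc is listed as a STAT3 target and moved opposite to Klf4 and Socs3.

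In fPSCs against mESCs, 7 of the 39 rose and 21 fell (17.3% and 23% of all genes), with a median log2(FPKM + 1) difference of -0.70. Of 8 kinases and STATs tested 6 fell, and of 8 targets 6 fell and 1 rose. Tfcp2l1 was at 0.186 to 0.784 FPKM in fPSCs (-5.98 ± 0.21, adjusted p = 1.6e-10 by limma), Klf4 at 0.4001 to 1.08 FPKM (-5.66 ± 0.17, adjusted p = 3.4e-11 by limma), and Bcl3 at 0 to 0.258 FPKM (-5.30 ± 0.16, adjusted p = 3.0e-11 by limma). The genes that rose most were Myc, at 29.98 to 68.6 FPKM (4.68 ± 0.33), Cntfr, at 12.0 to 42.2 FPKM (4.42 ± 0.45), and Ptpn1, a phosphatase that acts on JAK kinases, at 15.3 to 18.0 FPKM in fPSCs and 5.61 and 7.49 in mESCs (1.25 ± 0.15); their adjusted p-values by limma were 1.3e-07, 4.2e-06 and 2.7e-05.

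In EpiSCs against mESCs the list moved both ways, with 10 genes rising and 14 falling (23.1% and 24.7% of all genes) and a median log2(FPKM + 1) difference of 0.19. Tfcp2l1 and Klf4 fell here too, to 0.378 and 0.495 FPKM and to 0.898 and 1.35 FPKM, with log2(FPKM + 1) changes of -5.93 and -5.27 (adjusted p = 2.0e-09 and 7.6e-10 by limma). Jak3, a JAK kinase best known from lymphocytes, was at 29.9 and 44.6 FPKM in mESCs and 1.62 and 2.63 FPKM in EpiSCs (-3.61 ± 0.27, adjusted p = 2.1e-07 by limma). Cntfr reached 80.7 and 105 FPKM (6.33 ± 0.56, adjusted p = 1.2e-06 by limma), its highest level among the groups, and Myc 20.1 and 35.8 FPKM (3.99 ± 0.41, adjusted p = 5.2e-06 by limma).

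Between fPSCs and EpiLCs, 6 of the 39 differed. Higher in fPSCs were 2 and lower 4, beside 5.66% and 8.15% of all genes, a share near that of all genes, and the median log2(FPKM + 1) difference was -0.10. Junb, an early response transcription factor, was at 5.37 to 11.5 FPKM in fPSCs and 2.44 and 5.30 FPKM in EpiLCs (1.03 ± 0.32, adjusted p = 0.046 by limma), and Pias2, an E3 ligase for SUMO, at 6.10 to 12.1 FPKM against 15.8 and 18.4 (-0.79 ± 0.20, adjusted p = 0.017 by limma). Without the first EpiLC library 1 pathway gene was called and none of the 6 was kept, and without the second 1 of the 6 was kept, Junb. Junb was lost in 5 of 9 other settings, among them upper-quartile scaling, the fPSCs of the first deposit and the fit without 46C.

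Against EpiSCs, fPSCs were higher in 2 and lower in 18 of the 39 (13.3% and 19% of all genes), with a median log2(FPKM + 1) difference of -0.54. Klf5, a partner of Klf4, was at 0.517 to 4.38 FPKM in fPSCs and 10.2 and 10.96 FPKM in EpiSCs (-1.94 ± 0.45, adjusted p = 0.0051 by limma), and Cntfr was lower by 1.91 ± 0.45 (adjusted p = 0.0058 by limma). Lif itself, the ligand, was at 0.326 to 1.16 FPKM in fPSCs and 4.79 and 6.25 FPKM in EpiSCs (-1.81 ± 0.19, adjusted p = 1.2e-05 by limma). EpiSCs also had the highest fibroblast markers, while mESCs, with 1.61 to 3.65 FPKM of those markers, held a mean of 2.62 FPKM of Lif. The part of feeder RNA in the EpiSC levels of Lif and of the other pathway genes was not tested, here or against mESCs. Higher in fPSCs were Ptpn2, a phosphatase of JAK1 and STAT proteins, at 11.7 to 34.9 FPKM against 8.24 and 8.80 (1.36 ± 0.41, adjusted p = 0.021 by limma), and Socs4 at 5.18 to 7.58 FPKM against 3.33 and 4.01 (0.66 ± 0.17, adjusted p = 0.011 by limma). Without the second EpiSC library 8 of these 20 calls were left, and Klf5, Cntfr, Ptpn2 and Socs4 were not among them.

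Of 9 genes for proteins that PIM kinases are known to phosphorylate, all tested, 2 were called in EpiLCs, 2 in fPSCs and 0 in EpiSCs against mESCs, and in fPSCs 1 was called against EpiLCs and 2 against EpiSCs, beside the shares of all genes given above for each comparison. Cdkn1a, which encodes the cell cycle inhibitor p21, fell from 103 and 124 FPKM in mESCs to 18.8 and 23.6 FPKM in EpiLCs (-2.37 ± 0.50 on the log2(FPKM + 1) scale, adjusted p = 0.0032 by limma) and to 9.92 to 47.4 FPKM in fPSCs (-1.98 ± 0.40, adjusted p = 0.0015 by limma), and it was also lower in fPSCs than in EpiSCs, at 89.7 and 127 FPKM (-1.90 ± 0.40, adjusted p = 0.0031 by limma). Bad, which encodes a promoter of apoptosis, fell in EpiLCs against mESCs (-1.01 ± 0.35, adjusted p = 0.046 by limma), a call that was lost in 8 of 10 other settings. Cdc25c, which encodes a phosphatase of mitotic entry, was higher in fPSCs than in mESCs (0.74 ± 0.20, adjusted p = 0.010 by limma) and EpiLCs (0.92 ± 0.20, adjusted p = 0.0083 by limma), and Cdkn1b, which encodes p27, higher in fPSCs than in EpiSCs (0.82 ± 0.30, adjusted p = 0.0496 by limma), lost in 5 of 9 other settings. The Cdc25c call against EpiLCs was lost without either EpiLC library, that against mESCs without the first mESC library, and the Cdkn1a call against EpiSCs without the second EpiSC library. In EpiSCs against mESCs none of the 9 passed by limma, and 0 had an unadjusted p under 0.05. The part of feeder RNA in the EpiSC levels of Cdkn1a and the other substrates was not tested. The median log2(FPKM + 1) difference of the 9 lay between -0.18 and 0.34 in the 5 comparisons.

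The genes whose log2(FPKM + 1) values ran most like each member over the 19 libraries were searched among 7506 genes whose mean reached 5 FPKM; the libraries share states, lines and deposits, so the correlations are a description. The closest were Slc1a3, a glutamate transporter, to Pim2 (Pearson's r = 0.96), Cdkn2a, a cell cycle inhibitor, to Pim1 (0.95), Pias4, a SUMO ligase of the pathway list, to Pim3 (0.97), Ly6a, a surface antigen, to Socs3 (0.98), and Lamb2, a laminin chain, to Stat3 (0.98). For Gbx2 it was Tubb3, a neuronal tubulin (0.91), for Lifr Dlc1 (0.91), for Il6st Ckb, a creatine kinase (0.93), for Jak1 the zinc transporter Slc39a6 (0.93), and for Socs2 Spint2, a protease inhibitor (0.86), the loosest match of the 10. Next in line were Ramp3 and Zfp608 for Pim2, Fam63a and Cldn4 for Pim1, Ostf1 and hexb for Pim3, Ctsb and Ckb for Socs3, Acot9 and Relb for Stat3, Mvp and Fam160b1 for Gbx2, Elf3 and A4galt for Lifr, Nid1 and Pla2g15 for Il6st, Dync1h1 and Fmnl3 for Jak1, and Mapk13 and Imp3 for Socs2. Among the members themselves, Stat3 ran with Socs3 (0.94) and against Pim2 (-0.87), Pim3 ran with Stat3 (0.88), and Pim1 ran closest with Pim3 (0.84) and Gbx2 (0.81).

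Single-cell tables held 182 fPSCs of 4 clones, of which 181 had at least 500 genes and were kept (46, 45, 46 and 44 cells). The median count per cell was 19078, 32356, 33883 and 22634 in clones 1 to 4. The tables hold no cell type that lacks the genes, so the level of stray counts is not known, but Pou5f1, a core gene of all pluripotent states, had a count in 9.39% of cells and Actb in 98.9%, so a missing count says little about a gene here. The intervals given are 95% exact intervals and cover counting error only. The 2 tables share 86 well numbers, and 1 cell name stands 2 times in 1 of them with different counts, both kept as cells.

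Pim2 was the member with by far the most counts, in nearly every cell. It had a count in 169 of 181 cells (93.4%, interval 88.7% to 96.5%), with 592, 618, 741 and 621 CPM (counts scaled by the total of the clone) in clones 1 to 4, and it ranked between the 162nd and 211th gene by summed counts of 16299 or 16176. In single cells the median was 538 CPM, with quartiles at 334 and 782 and a maximum of 2484 CPM. The 12 cells without a Pim2 count had a median of 7793.5 counts in all, below the median of each clone. With each cell thinned to 5000 counts, which left out 6, 4, 1 and 3 shallower cells of clones 1 to 4, 78.0% to 95.1% of cells kept a Pim2 count.

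Socs2 came next, with a count in 64.1% of cells and 300 (273 to 329), 194 (179 to 210), 137 (127 to 148) and 180 (164 to 198) CPM in the 4 clones, and 39.0% to 53.7% of thinned cells. Jak1 was counted in 22.7% of cells (17.6 to 56.2 CPM per clone), Stat3 in 13.3% (7.43 to 32.6 CPM), Il6st in 10.5% (2.12 to 16.7 CPM) and Pim3 in 7.73% (4.93 to 13.3 CPM). The remaining 4 were near the limit of detection, with Lifr in 6.08% of cells, Socs3 in 3.31%, Gbx2 in 2.76% and Pim1 in 3.30% of the 91 cells of clones 1 and 2, the only ones whose table lists it. For comparison, Klf4 had a count in 6.08% and Col1a1 in 29.3% of cells. Gbx2 was counted in 0 of 46 cells of clone 1, which allows a share of cells with a count of up to 6.52% (3 of 46, with 7.71% as the exact upper bound) and sets no limit on cells that express it, and in 3 of 44 cells of clone 4 (8.57 CPM, interval 5.31 to 13.1). As in bulk fPSCs, Pim2 and then Socs2 had the highest levels of the members, though these counts are not scaled by length.

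**Figure D4:**
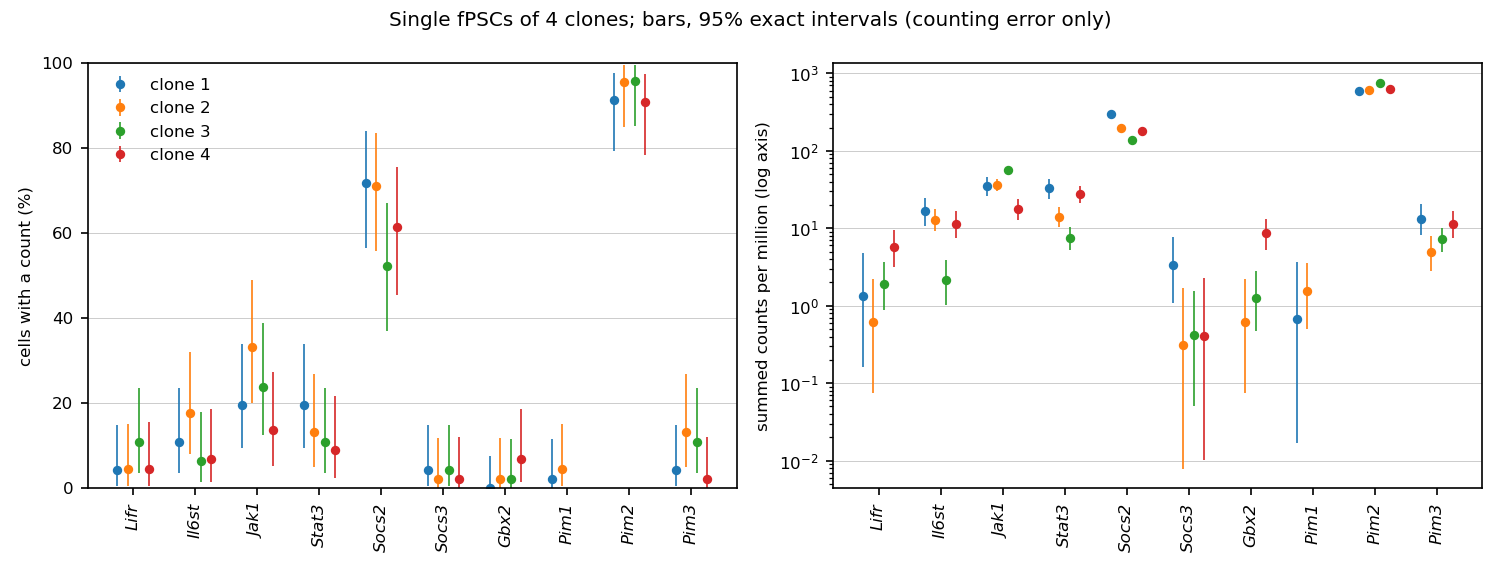
Share of cells with a count (%) and summed CPM on a log axis for the 10 genes in the 4 single-cell clones; bars are 95% exact intervals, Pim1 is listed for clones 1 and 2 only, and a clone without counts has no point on the log axis. Pim2 is counted in 90.9% to 95.7% of cells per clone and Socs2 in 52.2% to 71.7%, with the other members at 33.3% or less.

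In P10 fPSCs the start sites of the 10 genes mostly carried H3K4me3, the mark of active or poised promoters, and little CG methylation. Within 1000 bp of the annotated mm9 start, the mean H3K4me3 signal, in RPKM (reads scaled to length and library size) over 100-base bins, exceeded the median of 22089 protein-coding genes (2.61 RPKM) in 9 of 10 members, and methylation lay below the median of 0.357 in 9 of 10. Most exceeded the H3K4me3 median by little. Pim3 was level with it (2.61 RPKM), and Jak1, Socs3, Gbx2 and Socs2 lay between the 52.3rd and 54.3rd percentile. Stat3 was at percentile 57.3, Pim2 at 59.0, Lifr at 73.0 and Pim1 at 78.2. Within 500 or 5000 bp of the start 7 of 10 members exceeded the median of that window. Within 1000 bp the exception in both was Il6st, whose annotated start had 0.062 RPKM and a methylated fraction of 0.945. At the start that RefSeq gives for Il6st, matched by sequence to chr13:113254278 of the same build, it was 5.47 RPKM and 0.086, so the annotated start is a poor measure of this promoter. Each mark has 1 file for 2 labelled replicates, so no spread can be given.

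H3K27me3, the Polycomb mark of repressed genes, set the members apart from each other. Gbx2 had a mean of 5.51 RPKM within 1000 bp of its start, at the 99.8th percentile of all genes, beside 2.92 RPKM of H3K4me3 and a methylated fraction of 0.121. Lifr (1.51 RPKM, 89.4th percentile), Socs3 (1.45, 88.7th) and Jak1 (0.999, 82.3rd) came next, then Pim1 (0.709, 74.7th). Pim2 had 0.096 RPKM, at the 19.9th percentile, with 3.48 RPKM of H3K4me3 and a methylated fraction of 0.196. The median of all genes was 0.289 RPKM, which Socs2 matched (0.289), while Stat3 and Pim3 had 0.418 RPKM each.

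At the RefSeq start, inside the annotated gene, Gbx2 still had 3.09 RPKM of H3K27me3 (97.7th percentile), with 3.36 RPKM of H3K4me3 and a methylated fraction of 0.0205. These files hold fPSCs only, so whether the marks differ from those of mESCs, EpiLCs or EpiSCs was not measured.

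**Figure D5:**
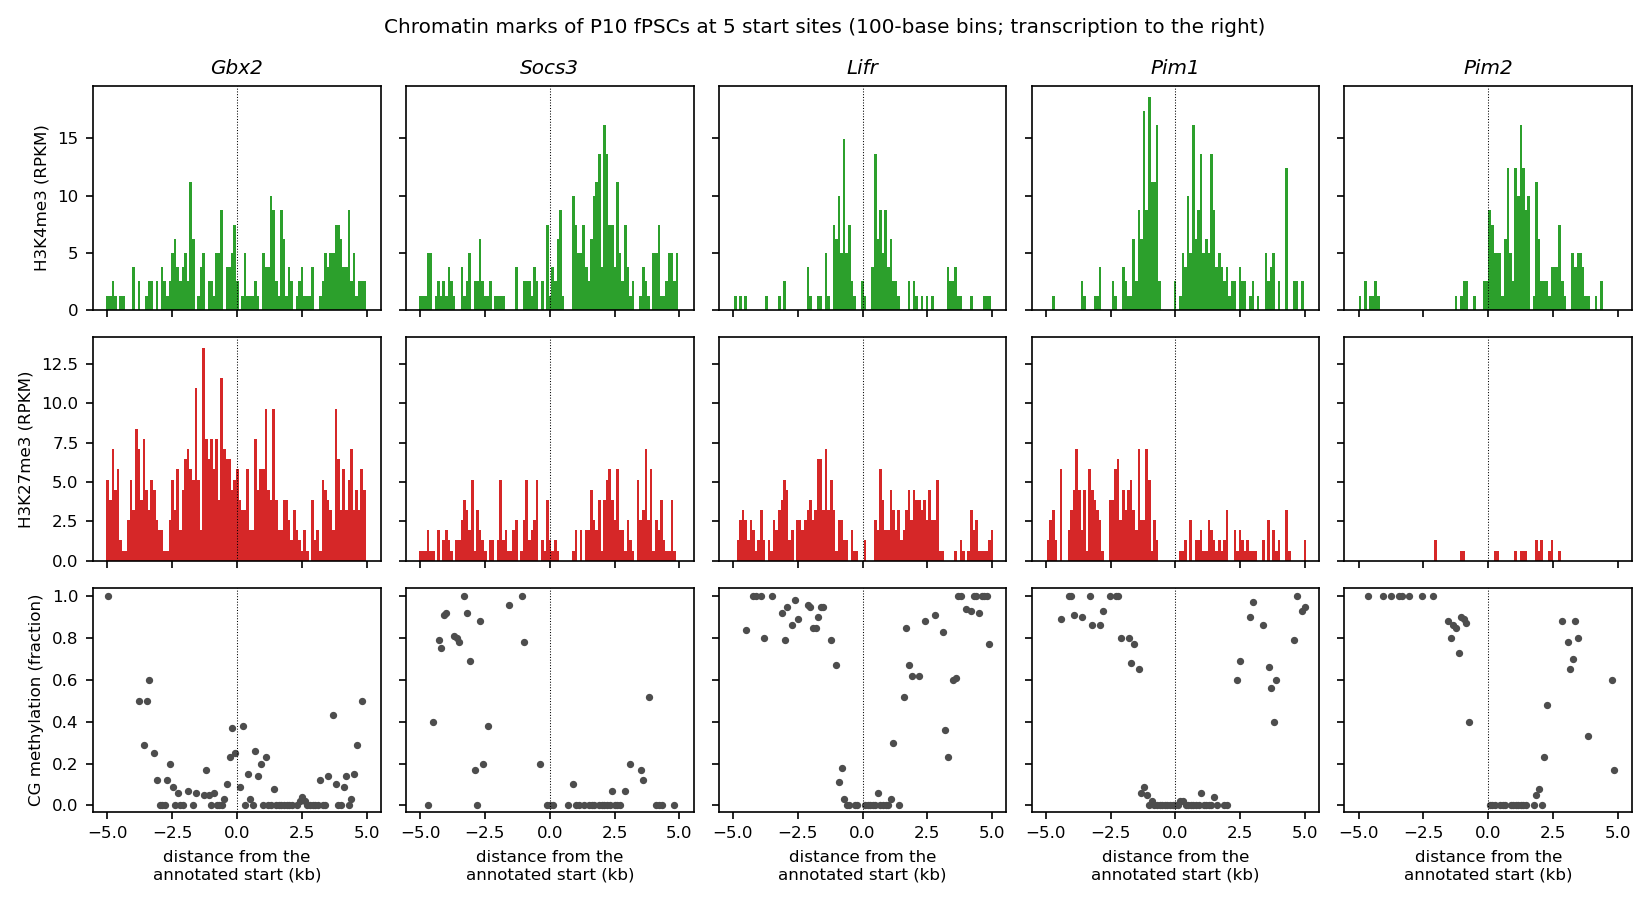
H3K4me3 and H3K27me3 (RPKM per 100-base bin) and methylated fraction of CG within 5 kb of the annotated start of 5 members in P10 fPSCs; distance in kb, transcription to the right, dotted line at the start. H3K27me3 is listed in nearly every bin at Gbx2, with a mean of 5.51 RPKM within 1000 bp of the start, and in few bins at Pim2, with a mean of 0.096 RPKM.

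The promoters of Pim2, Socs3 and Pim1 are printed because they stand for the opposite courses of the family and its best-known co-target. Each is 250 bases before to 50 bases after the start given by RefSeq (GRCm38.p6), 5′ to 3′, in lower case with any TTCNNNGAA in capitals.
Pim2, plus strand: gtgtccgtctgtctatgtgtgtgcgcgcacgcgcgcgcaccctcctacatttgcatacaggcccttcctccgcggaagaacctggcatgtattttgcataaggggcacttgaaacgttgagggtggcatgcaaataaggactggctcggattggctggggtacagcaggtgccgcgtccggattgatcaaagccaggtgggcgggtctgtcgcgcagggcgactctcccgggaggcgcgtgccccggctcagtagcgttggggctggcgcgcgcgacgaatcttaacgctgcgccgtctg
Pim1, plus strand: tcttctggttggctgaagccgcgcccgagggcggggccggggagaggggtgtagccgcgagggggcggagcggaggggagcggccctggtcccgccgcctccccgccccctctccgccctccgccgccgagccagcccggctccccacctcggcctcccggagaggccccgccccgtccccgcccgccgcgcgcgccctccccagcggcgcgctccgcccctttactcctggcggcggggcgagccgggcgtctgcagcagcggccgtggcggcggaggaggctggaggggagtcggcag
Socs3, minus strand: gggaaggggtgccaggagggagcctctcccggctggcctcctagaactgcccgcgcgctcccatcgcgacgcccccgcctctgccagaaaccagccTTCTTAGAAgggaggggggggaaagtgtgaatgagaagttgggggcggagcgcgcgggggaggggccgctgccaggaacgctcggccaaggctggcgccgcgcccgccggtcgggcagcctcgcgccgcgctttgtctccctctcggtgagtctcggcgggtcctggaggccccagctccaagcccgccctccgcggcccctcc
Of the 10 members, 9 are in the RefSeq table, and Socs3 alone holds TTCNNNGAA in such a window, at -154 from its start. This is the same match as the one given above at 531 bp after the annotated start. Of all 27025 genes in the table, 9.55% hold TTCNNNGAA in such a window. None of the 9 holds TTCCNGGAA there, and 1.15% of all 32851 promoters do. No match means only that these letters are not in the window.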

How the data were processed

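Bulk RNA was measured in 19 libraries. The authors deposited FPKM, made with cutadapt 1.11 for trimming, TopHat2 2.1.1 for alignment (mm9) and Cufflinks 2.1.1 for quantification; the depth of these libraries is unknown, and FPKM totals ran from 307394 to 414727. The authors deposited single-cell counts per gene (STAR), ChIP-seq RPKM in 100-base bins (Bowtie2 2.2.2) and methylated fraction per 100-base bin (BS-Seeker2), with no coverage behind each fraction; bins that are not listed in the ChIP files were taken as 0. The 4 table entries whose names are listed more than once were left out. The 10 genes, the pathway and substrate lists and the rules for named genes were chosen with earlier results of these data known.

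Groups follow the GEO labels, and whether replicates were separate cultures is not stated, so p-values measure the spread between these libraries. log2(FPKM + 1) values of mESCs, EpiLCs, EpiSCs and 7 fPSC libraries were fitted together in limma 3.58.1 (R 4.3.3, trend; Benjamini-Hochberg adjustment over 12513 genes reaching 1 FPKM in 2 or more libraries; threshold adjusted p under 0.05 and fold 1.5). The fit was tested on simulated data with independent noise. Those data held no effect of deposit, line or library preparation, so the test does not bear on such effects. The study's own count test could not be applied to FPKM. Members got no p. Named were all members, per comparison up to 3 called pathway genes in each direction, by size of change and with a group mean reaching 5 FPKM, each substrate called, and the 3 genes most correlated with each member. Single-cell counts were summed per clone over cells with at least 500 genes, with exact Poisson or binomial 95% intervals; doublets were not called. The log2 scale with a pseudocount understates changes of low genes. Other pseudocounts, filters, scalings, sets of libraries and windows were tried. Start sites came from the GENCODE annotation of NCBIM37, and promoter sequences from RefSeq. Some items that these rules name are not reported here. Figures were drawn with matplotlib.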

Additional observations from a re-analysis of the deposited data

Results flagged for a closer look

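Each member was checked for a sample that stands apart from the rest of its group, by the ratio of its gap to the nearest sample over the whole range (Dixon), in the 7 fPSC libraries and, for the 9 members with values in all of them, in the 4 single-cell clones. Of 19 such checks 3 passed the critical value. Chance alone passes about 1 in 20 where values are normally distributed, a rate that need not hold for FPKM or for low counts.

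Lifr stood apart in the 46C line, at 1.23 FPKM, with a gap of 0.826 of the range. Without 46C the log2(FPKM + 1) difference of Lifr between fPSCs and mESCs was -2.14. Socs3 stood apart in clone 1 of the single cells, at 3.33 CPM, which rests on 5 counts in 2 cells. Gbx2 stood apart in clone 4, at 8.57 CPM, which rests on 21 counts in 3 of 44 cells. The cause of these was not tested.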

How the results depend on the processing

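Of 470 recomputed log2 differences of single members 455 moved by less than the spread between libraries, and the sign changed in 7, in 5 pairs of gene and comparison whose libraries overlap. Of 15 that moved further, 13 came with a pseudocount of 0.1, which widens differences of low genes, and 2 were Pim1 with the fPSCs of the first deposit (-3.85 against mESCs and -1.82 against EpiSCs). With 1 library left out, pathway calls ran from 1 (without either EpiLC library) to 6 (without 46C) for fPSCs against EpiLCs, and from 8 (without EpiSCs replicate 2) to 20 (without 46C) for fPSCs against EpiSCs. Over all genes, fPSCs against EpiLCs gave 962 and 985 calls with an EpiLC library left out and 1823 without 46C, 3177 with the fPSCs of the first deposit and 2645 with those of the second, where all 7 gave 1728, and fPSCs against EpiSCs gave 1940 to 2802 with an EpiSC library left out and 4038 without 46C, where all gave 4041. Fewer libraries enter these fits, and no other cause was tested. Calls among the 9 Pim substrates ran over all settings from 1 to 2 (EpiLCs) and 0 to 1 (EpiSCs) against mESCs, and for fPSCs from 1 to 3 against mESCs, 0 to 4 against EpiLCs and 1 to 3 against EpiSCs. Thinning each cell to 5000 counts took the mean share over clones from 93.4% to 86.9% for Pim2 and from 64.1% to 45.0% for Socs2. Same-numbered libraries of mESCs, EpiLCs and EpiSCs did not deviate together (r = 0.20, -0.20 and -0.13), so they share only a number; with the replicate block, 22 pathway genes were called in EpiLCs against mESCs and 26 in EpiSCs against mESCs, and 4127 and 6718 of all genes, where the same libraries without it gave 24, 25, 4342 and 6808. Chosen after seeing the data were that unblocked fit, the fits without 46C and the RefSeq start sites. The depth of the bulk libraries is unknown and most groups have 2 libraries, which limits every statement on small differences.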
